A study of Mus musculus with 3 samples.

Results

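Chemokines and cytokines that stromal cells secrete were measured in a culture in which testis mesenchymal cells become Leydig cells, the cells that make testosterone. The 10 genes were chosen by name: the CC chemokines Ccl2, Ccl7 and Ccl11, the CXC chemokines Cxcl1, Cxcl5 and Cxcl12, the gp130 cytokines Il6 and Lif, the growth factor Csf1 and the alarmin Il33. Of these, 9 were among the 24698 genes of the count table and Cxcl5 was not analysed here. Chemokines are small secreted proteins that guide the movement of leukocytes and other cells through receptors coupled to G proteins. Cytokines of the gp130 group signal through a shared receptor chain, gp130, to STAT3. In the testis, macrophages lie beside the Leydig cells of the interstitium, and the Csf1 receptor is needed for macrophages to form and survive.

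The cells came from adult C57BL/6 males of 8 to 12 weeks and were sorted as Sca1+/cKit-, plated on Matrigel at 100000 cells per well and left for 18 h in 10% FBS. Expansion took 3 days in medium that held PdgfAA, PdgfBB and Fgf2 at 10 ng/ml each and the Smoothened agonist SAG at 0.5 uM, and the differentiation medium that followed also held 5 mM LiCl2 and 10 uM of the Notch inhibitor DAPT. Drop-seq, which captures cells in droplets with barcoded beads and counts mRNA molecules by unique molecular identifiers (UMIs), was done on day 4 (0 days in that medium), day 7 (3 days) and day 14 (10 days), and the 3 libraries were sequenced in the same batch. Each day was 1 library, so there were no replicates, and day and library cannot be told apart.

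The day 4 library held 2980 cell barcodes with 12677110 UMIs, the day 7 library 2171 with 11627440 and the day 14 library 973 with 5324400. The median depth was 2886.5, 3285 and 3272 UMIs per barcode, and single barcodes held 594 to 80524. Libraries shared 0 kept barcodes. Many barcodes matched another of their library over the first 11 bases: 1304 in day 4 (43.8%), 1026 in day 7 (47.3%) and 504 in day 14 (51.8%). These barcodes were shallower, with a median of 1665, 1951 and 2136 UMIs against 5039, 6464 and 7508 in the others, and 66.4% of the 752 sets lay within 1 cluster. Whether the barcodes of a set were 1 bead was not tested. Summing each set left 2027, 1414 and 601 units, and shares of cells are therefore given both ways where they matter.

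Levels are UMIs per 1000000 of a library or group (CPM). Their 95% intervals are exact Poisson intervals, those of shares of cells are Clopper-Pearson intervals, and both cover counting error only. The Poisson intervals leave out the spread of UMIs between cells, so an order by them holds for the counts alone. A gene was called higher or lower when its CPM, with 1 CPM added, differed at least 2-fold and both groups together held at least 20 UMIs. A level of 0 is given with the limit that 3 counts would set.

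Sca1 and cKit, the sort markers, are encoded by Ly6a and Kit. Over days 4, 7 and 14, Ly6a stood at 523, 64.2 and 358 CPM and Kit at 0.789, 0.0860 and 2.07 CPM. The stromal genes Col1a1 (789, 1148 and 486 CPM) and Pdgfra (107, 65.3 and 108 CPM) were present on every day, and the pan-leukocyte gene Ptprc had 4, 4 and 15 UMIs. Tcf21, for which the study names an interstitial population of the testis, was at 30.9, 21.6 and 14.1 CPM. Of these genes, Ly6a, Kit, Col1a1 and Pdgfra were picked to check the labels and lay outside the rule for naming genes.

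Ccl2, which draws monocytes through the receptor Ccr2, was at 269 CPM on day 4 (261 to 279), 309 on day 7 (299 to 319) and 60.3 on day 14 (53.9 to 67.3). The 3 intervals did not overlap, and day 14 was the lowest. Its level on day 14 was 5.13-fold below day 7 (4.57 to 5.77) and 4.47-fold below day 4 (3.99 to 5.03). Days 4 and 7 differed 1.15-fold, and this small difference changed sign, from a log2 ratio of 0.20 to -0.10 and -0.17, when cells were thinned to equal depth or given equal weight. Among cells thinned to 1500 UMIs, 18.0% had a Ccl2 UMI on day 4 (16.4 to 19.7), 18.8% on day 7 (17.0 to 20.7) and 5.29% on day 14 (3.84 to 7.08). With barcodes of a set summed, the thinned shares were 17.7%, 18.3% and 5.63%.

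Ccl7, a ligand that shares Ccr2 with Ccl2, was at 32.4 CPM on day 4 (29.4 to 35.7), 54.7 on day 7 (50.5 to 59.1) and 33.2 on day 14 (28.5 to 38.5). Day 7 stood above both other days, whose intervals overlapped, and neither step passed 2-fold: day 7 was 1.69-fold above day 4 (1.49 to 1.91) and day 14 was 1.65-fold below day 7 (1.39 to 1.95). Ccl7 on day 14 thus had a log2 ratio to day 4 of 0.04 where that of Ccl2 was -2.14. Ccl11, or eotaxin, which draws eosinophils through Ccr3, had 2, 2 and 7 UMIs in the 3 libraries, too few for a call. In GRCm38 coordinates of GENCODE M21 the 3 genes follow each other on the plus strand, Ccl2 at chr11:82035571-82037453, Ccl7 at chr11:82045712-82047525 and Ccl11 at chr11:82057823-82062955. Gaps of 8258 and 10297 bases separate them.

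Cxcl12, the ligand of Cxcr4 and Ackr3 that keeps blood stem cells in marrow niches, was at 308 CPM on day 4 (298 to 318), 282 on day 7 (273 to 292) and 101 on day 14 (92.9 to 110). The intervals did not overlap, with day 4 highest and day 14 lowest. Day 14 was 2.79-fold below day 7 (2.55 to 3.06) and 3.04-fold below day 4 (2.78 to 3.33). Days 4 and 7 differed 1.09-fold. Cxcl1, which draws neutrophils through Cxcr2, had 16, 4 and 1 UMIs in the 3 libraries, and the intervals of neighbouring days overlapped. Day 7 over day 4 gave a ratio of 0.273 (0.0663 to 0.845) and a log2 ratio, with 1 CPM added, of -0.75, short of a call. Cxcl12 lies at chr6:117168535-117181367 and Cxcl1 at chr5:90891241-90893115, both on the plus strand.

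Il6, a gp130 cytokine of inflammation and the acute phase, was at 20 CPM on day 4 (17.6 to 22.7), 13.4 on day 7 (11.4 to 15.7) and 0 on day 14. Day 4 stood above day 7 by 1.49-fold (1.22 to 1.83). The day 14 library held 0 Il6 UMIs among 5324400, a limit of 0.563 CPM, which is at least 23.8-fold lower than day 7 and at least 35.6-fold lower than day 4. These folds take the levels of days 4 and 7 as they are, and with their counting error the exact 95% intervals begin at 19.1-fold and 28.7-fold. The second gp130 cytokine, Lif, is known for keeping mouse embryonic stem cells undifferentiated. It was at 10.3 CPM on day 4 (8.64 to 12.3), 19.7 on day 7 (17.2 to 22.4) and 0.939 on day 14 (0.305 to 2.19, from 5 UMIs). Day 7 was the highest, 1.91-fold above day 4 (1.53 to 2.38), and the 3 intervals did not overlap. Day 14 was 21.0-fold below day 7 (8.86 to 65.2) and 11-fold below day 4 (4.60 to 34.5). Il6 lies at chr5:30013114-30019981 and Lif at chr11:4257557-4272514, both on the plus strand.

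Csf1, the growth factor that monocytes and macrophages need, was at 678 CPM on day 4 (664 to 693), 432 on day 7 (420 to 444) and 93.0 on day 14 (85.0 to 102). Each later day was lower than the one before, with no overlap of intervals. Day 7 was 1.57-fold below day 4 (1.52 to 1.63), which was no call, and day 14 was 4.64-fold below day 7 (4.23 to 5.10) and 7.30-fold below day 4 (6.66 to 8.00). Among thinned cells the share with a Csf1 UMI was 53.1% on day 4 (51.0 to 55.2), 38.1% on day 7 (35.8 to 40.4) and 12.5% on day 14 (10.3 to 15.0). Il33, a nuclear cytokine of the Il1 family that acts as an alarm signal when cells are damaged, had 22, 21 and 1 UMIs. Its ratio of day 14 to day 7 was 0.104 (0.00251 to 0.647) and to day 4 was 0.108 (0.00262 to 0.670), so its calls rest on few molecules and were lost with 5 CPM added in place of 1. Csf1 lies on the minus strand at chr3:107741048-107760469 and Il33 on the plus strand at chr19:29925114-29960718.

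**Figure D1:**
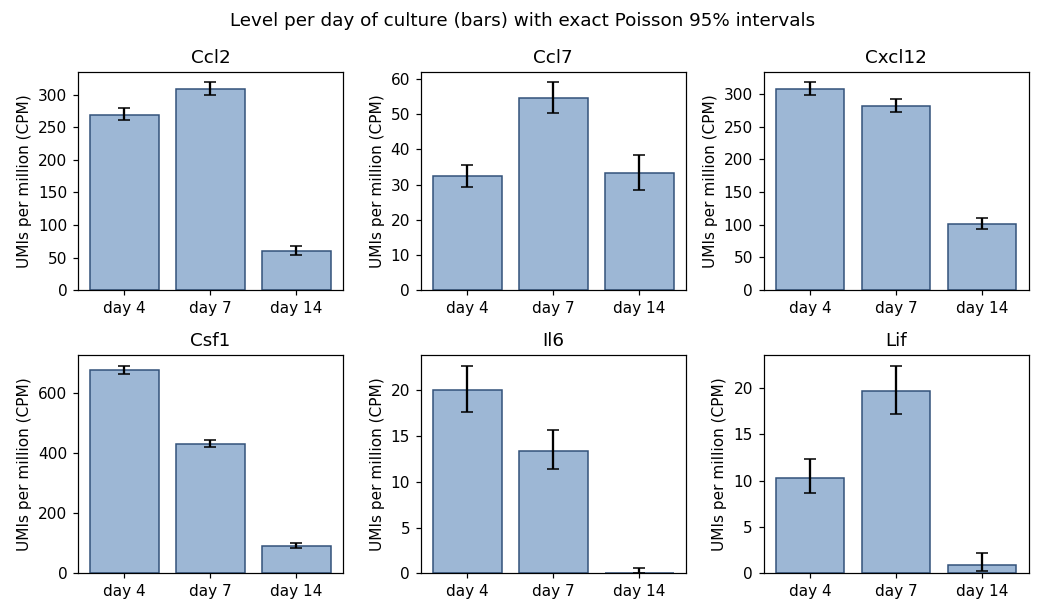
Bars give the level of 6 genes on days 4, 7 and 14 in UMIs per 1000000 (CPM) of the library, with exact Poisson 95% intervals and, for each panel, its own axis from 0. Csf1 stepped down from 678 to 432 and 93.0, Ccl7 was highest on day 7 at 54.7, and Il6 had 0 UMIs on day 14, with an error bar up to the limit of 0.563.

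Counted together, 0 of the 8 genes with enough UMIs passed 2-fold between days 4 and 7, where 2.25% of the 12954 genes tested were higher on day 7 and 2.76% lower. From day 7 to day 14, 6 of 7 were lower (Ccl2, Cxcl12, Il6, Lif, Csf1 and Il33) and 0 were higher, against 14.0% and 10.1% of 12656 genes. Day 14 against day 4 shares the day 14 library with that comparison and gave the same 6 of 7 lower and 0 higher, against 15.3% and 13.5% of 12712 genes. The median log2 ratio of the genes tested was -0.04 for day 7 over day 4, -2.20 for day 14 over day 7 and -2.14 for day 14 over day 4. Over all genes tested it was 0.09, -0.13 and -0.05.

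The mixture of cell states differed between the libraries. Cells were clustered with the 9 genes and all pathway genes left out, and clusters were named for the marker list that stood out most in them, as likenesses only. Of day 4 barcodes, 74.0% were differentiating myofibroblast-like, 596 of 2980 proliferating progenitor-like, 3.32% differentiating Leydig-like and 1.31% ECM (extracellular matrix) myofibroblast-like. On day 7, 59.0% were ECM myofibroblast-like, 22.2% proliferating, 14.2% differentiating Leydig-like and 3.13% differentiating myofibroblast-like, and on day 14, 56.0% were differentiating Leydig-like and 42.1% Leydig-like. Interferon-response genes such as Ifit3, Isg15 and Ifi27l2a led the differentiating myofibroblast-like clusters of day 4, together with F3 and Lpl. The differentiating Leydig-like name covered different clusters: 97 of its 99 cells on day 4 and 277 of its 309 on day 7 lay in a cluster led by Eln, Entpd2 and Mfap2, and 535 of its 545 on day 14 in a cluster led by Slc38a5, Gpx3 and Mmp2. In the cluster led by Eln the median log2 ratio of the differentiating Leydig markers was 1.06, close to 0.88 for the interstitial progenitor markers. At a coarser resolution of 0.4, 1181 cells of day 4 (39.6%) took the name interstitial progenitor-like and 1049 (35.2%) differentiating myofibroblast-like, so the size of this state depended on the clustering. An unnamed cluster of 66 cells, led by Lyz2, Ctss, Tnp1 and Prm1, held 42, 21 and 3 cells of the 3 days.

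On day 4, Ccl2 was at 375 CPM in proliferating progenitor-like cells (353 to 398), 247 in differentiating myofibroblast-like cells (237 to 257) and 9.36 in differentiating Leydig-like cells (1.93 to 27.4, from 3 UMIs). Neighbours in this order did not overlap, but the intervals leave out spread between cells. The 30 barcodes richest in Ccl2 held 32.2% of its UMIs on day 4. At equal depth 22.7%, 17.6% and 0 of 76 cells had a Ccl2 UMI, the last with a limit of 3.95% from 3 counts. Before thinning, 2.02% of the differentiating Leydig-like cells had one. The median depths of the states were 3346, 2848 and 2819 UMIs. The step between the proliferating and the myofibroblast-like state, a log2 ratio of 0.60, became -0.21 when the clusters were made from 30 components. Those clusters held other sets of day 4 cells, with 430 proliferating, 928 differentiating myofibroblast-like and 901 unnamed cells (30.2%). The largest unnamed cluster, of 757 cells, was left unnamed over 1 leading gene of another list, with 0 of its own. Of the proliferating clusters, the one led by S-phase genes (Ccne2, Hells and Rrm2) had 585 CPM of Ccl2 on day 4 and the one led by mitotic genes (Cenpa, Cenpf and Cdc20) had 240.

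On day 7, Ccl2 was at 369 CPM in ECM myofibroblast-like cells (355 to 383), 235 in proliferating cells (217 to 254) and 91.1 in differentiating Leydig-like cells (74.9 to 110). The 68 differentiating myofibroblast-like cells had 539 CPM, but 1 barcode held 101 of their 136 UMIs, and without it the level was 151 (105 to 210). On day 14, differentiating Leydig-like cells had 57.9 CPM (47.7 to 69.5) and Leydig-like cells 62.0 (53.8 to 71.2), with overlapping intervals. Their log2 ratio of 0.10 changed to -0.60 at equal depth and -0.73 with equal weight per cell, and to 0.74 without barcodes that matched another over 11 bases. Leydig-like cells were the deeper of the pair, with a median of 5682 against 2208 UMIs. Ccl7 behaved alike on day 14, at 28.4 and 37.0 CPM, its log2 ratio of 0.37 becoming -0.13, -0.40 and 1.01.

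Ccl7 on day 4 was at 43.3 CPM in proliferating cells (36.0 to 51.5), 28.6 in differentiating myofibroblast-like cells (25.2 to 32.3) and 9.36 in differentiating Leydig-like cells (1.93 to 27.4), the last pair overlapping. On day 7 it was at 71.3 in ECM myofibroblast-like cells (65.3 to 77.7), 55.5 in differentiating myofibroblast-like cells (30.3 to 93.1), 29.4 in proliferating cells (23.3 to 36.6) and 15.7 in differentiating Leydig-like cells (9.47 to 24.6). Each interval overlapped that of its neighbour in this order. On day 4 the log2 ratio of proliferating to differentiating myofibroblast-like cells was 0.58 and became -0.15 with 30 components.

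With each state taken whole, Cxcl12 was highest in proliferating cells on days 4 and 7. On day 4 it was at 359 CPM in these cells (338 to 382), 297 in differentiating myofibroblast-like cells (286 to 309) and 159 in differentiating Leydig-like cells (119 to 209). On day 7 the proliferating cells were at 379 (357 to 403), followed by ECM myofibroblast-like cells at 259 (247 to 271), differentiating myofibroblast-like cells at 258 (199 to 328) and differentiating Leydig-like cells at 217 (191 to 245). Neighbours in the order of the last 3 overlapped, and all other neighbours on both days did not. By cluster, the S-phase and mitotic proliferating clusters had 390 and 340 CPM on day 4, and 1 differentiating myofibroblast-like cluster had 379. On day 7 these proliferating clusters had 423 and 331, and 1 ECM myofibroblast-like cluster had 403. At equal depth the day 7 shares of proliferating and ECM myofibroblast-like cells overlapped, at 33.0% (28.5 to 37.8) and 28.2% (25.5 to 31.0). On day 14 differentiating Leydig-like cells had 92.9 (79.9 to 107) and Leydig-like cells 109 (97.6 to 121), overlapping, and their log2 ratio of 0.22 became -0.15 at equal depth and -0.20 with equal weight.

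Il6 on day 4 was at 22.0 CPM in differentiating myofibroblast-like cells (19.0 to 25.2), 14.4 in proliferating cells (10.4 to 19.5) and 12.5 in differentiating Leydig-like cells (3.40 to 32.0), neighbours that overlapped. On day 7 the states with at least 10 Il6 UMIs lay between 11.6 and 14.3 CPM with overlapping intervals. On day 14 both Leydig states had 0 UMIs, with limits of 1.52 and 0.926 CPM. Lif on day 4 was at 12.1 CPM in differentiating myofibroblast-like cells (9.92 to 14.5) and 5.15 in proliferating cells (2.88 to 8.49), a 2.34-fold difference (1.36 to 4.33), and differentiating Leydig-like cells had 0 UMIs, a limit of 9.36. On day 7 it was at 24.3 in ECM myofibroblast-like cells (20.8 to 28.1), 15.1 in proliferating cells (10.8 to 20.4) and 5.80 in differentiating Leydig-like cells (2.33 to 11.9), the last pair overlapping, with 3 UMIs in differentiating myofibroblast-like cells.

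Csf1 was lowest in differentiating Leydig-like cells on days 4 and 7. On day 4 it was at 724 CPM in differentiating myofibroblast-like cells (707 to 742), 600 in proliferating cells (572 to 629) and 190 in differentiating Leydig-like cells (146 to 245). On day 7 it was at 490 in ECM myofibroblast-like cells (474 to 506), 440 in differentiating myofibroblast-like cells (362 to 530), 415 in proliferating cells (391 to 440) and 144 in differentiating Leydig-like cells (123 to 167), and the differentiating myofibroblast-like interval overlapped both of its neighbours. On day 14 it was at 133 in differentiating Leydig-like cells (118 to 151) and 70.7 in Leydig-like cells (61.8 to 80.5), 1.89-fold apart (1.58 to 2.26), which was no call. At equal depth 55.5% of differentiating myofibroblast-like cells had a Csf1 UMI on day 4 and 25.0% of differentiating Leydig-like cells. The highest cluster level was 1079 CPM on day 4, in a differentiating myofibroblast-like cluster whose leading genes included Ankrd1, Hbegf and Csf1 itself. Il33 was counted most in proliferating cells, with 11 of its 22 UMIs on day 4 and 12 of 21 on day 7, and the 99 differentiating Leydig-like cells of day 4 held 5 (15.6 CPM, 5.07 to 36.4, against 3.78, 1.89 to 6.76, in proliferating cells).

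**Figure D2:**
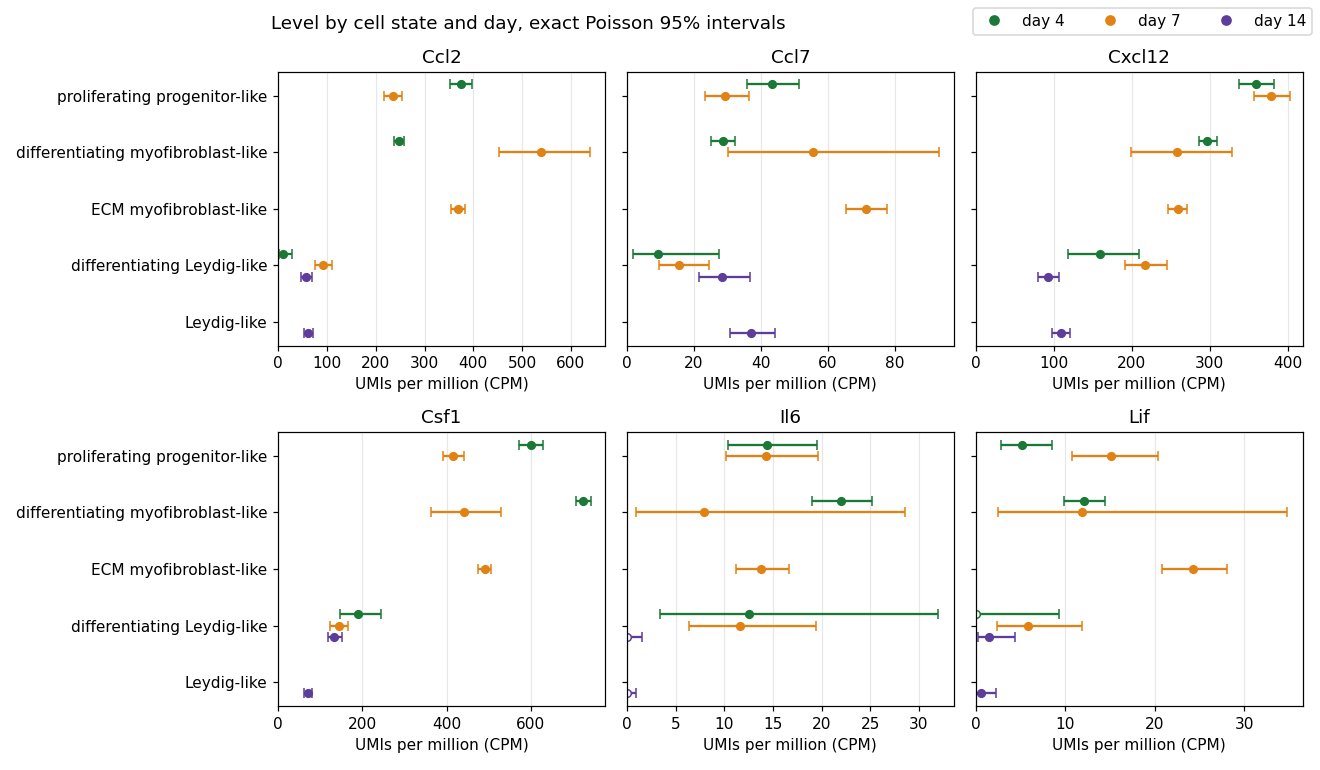
Level of 6 genes in the cell states with at least 50 cells on each day, in UMIs per 1000000 (CPM) of the state, with exact Poisson 95% intervals; hollow points are states with 0 UMIs and a bar to the 3-count limit. Csf1 ran from 724 in differentiating myofibroblast-like cells of day 4 to 70.7 in Leydig-like cells of day 14, and Ccl2 from 375 in proliferating cells of day 4 to 9.36 in differentiating Leydig-like cells of that day, with 539 in 68 differentiating myofibroblast-like cells of day 7 (151 without 1 barcode).

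Counted over states, proliferating against differentiating myofibroblast-like cells of day 4 gave 1 of 6 genes lower (Lif) and 0 higher, where 1.81% of 11505 genes were lower and 5.34% higher. The Lif call was lost at equal depth, with equal weight per cell, with states assigned cell by cell and with 5 CPM added. ECM myofibroblast-like against differentiating Leydig-like cells of day 7 gave 4 of 6 higher (Ccl2, Ccl7, Lif and Csf1) and 0 lower, against 6.39% and 5.71% of 11109 genes. These were ratios of 4.05 for Ccl2 (3.35 to 4.95), 4.53 for Ccl7 (2.87 to 7.59), 4.19 for Lif (1.99 to 10.6) and 3.40 for Csf1 (2.92 to 3.98). Proliferating against ECM myofibroblast-like cells of day 7 gave 1 of 6 lower, Ccl7 by 2.43-fold (1.92 to 3.11), and 0 higher, against 2.36% and 5.64% of 11423 genes. With equal weight per cell this log2 ratio went from -1.25 to -0.70, short of a call. Leydig-like against differentiating Leydig-like cells of day 14 gave 0 of 4 in either direction, against 4.03% higher and 5.84% lower of 10255 genes. The median log2 ratios of the genes tested were 0.00, 1.83, -0.44 and 0.16 in the order given, and over all genes 0.00, 0.02, 0.00 and -0.05.

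Within a state that 2 days shared, some differences between days were like those of the whole libraries and others were not. In proliferating cells, Lif was 2.92-fold higher on day 7 than on day 4 (1.58 to 5.69), and Ccl2 was 1.60-fold (1.45 to 1.76), Ccl7 1.47-fold (1.10 to 1.97) and Csf1 1.44-fold lower (1.34 to 1.56). The mix within this state differed, with 184 of 596 cells in the S-phase cluster on day 4 and 232 of 482 on day 7. Ccl2 went from 240 to 113 CPM in the mitotic cluster and from 585 to 345 in the S-phase cluster. In differentiating Leydig-like cells, day 14 against day 7 compares the different clusters described above. The ratio there was 0.428 for Cxcl12 (0.353 to 0.519), 0.635 for Ccl2 (0.485 to 0.833), 1.81 for Ccl7 (1.06 to 3.22, 15.7 and 28.4 CPM on days 7 and 14), which was lower on day 14 in the whole libraries, and 0.927 for Csf1, or 1.08-fold lower with an interval (0.886 to 1.31) that spans no difference. Il6 had 0 UMIs there on day 14 and 14 on day 7. Ccl2 in these cells was higher on day 14 than on day 4, by a ratio of 6.18 (2.06 to 30.4, from 114 and 3 UMIs), the opposite of the whole libraries. This state had 99 cells on day 4, against 8 with 30 components, 85 and 87 at the other resolutions and 239 when each cell was named separately, so its day 4 levels rest on the clustering. How much of the lower levels on day 14 came from the mixture of states was not tested.

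Ccl2 and Ccl7 were concentrated in few cells. The top 1% of barcodes for Ccl2 (30, 22 and 10 barcodes) held 32.2%, 34.1% and 41.1% of its UMIs on days 4, 7 and 14. The same barcodes held 1.95%, 2.83% and 2.54% of all UMIs, and the median for genes of like abundance was 7.78%, 7.85% and 13.0%. For Ccl7 the shares were 43.3%, 38.2% and 46.9% against medians of 17.1%, 12.6% and 15.9%. Cxcl12 (12.3%, 12.9% and 17.6% against 7.66%, 7.85% and 11%) and Csf1 (10.0%, 12.2% and 12.3% against 6.76%, 7.42% and 11.2%) lay nearer to their like genes. The richest barcodes of the 3 days held 79, 131 and 26 Ccl2 UMIs.

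**Figure D3:**
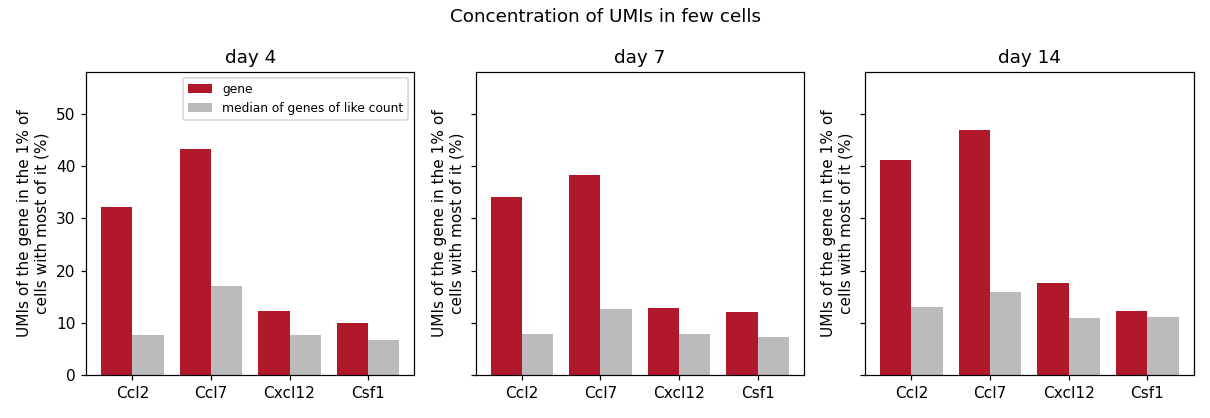
Percent of each gene's UMIs held by the 1% of barcodes richest in it (bars) on days 4, 7 and 14, with the median of genes of like abundance in the same library. Ccl2 (32.2, 34.1 and 41.1) and Ccl7 (43.3, 38.2 and 46.9) stood further above those medians than Cxcl12 and Csf1.

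Ccl7 was found more often in cells with Ccl2 than in cells without it. Among thinned cells of day 4, 12.2% of those with a Ccl2 UMI had a Ccl7 UMI (9.18 to 15.8), against 1.81% of the rest. On day 7 this was 20.2% (16.0 to 24.9) against 2.69%, and on day 14 19.0% (8.60 to 34.1) against 2.53%. Barcodes of a set summed gave 11.9% against 1.83%, 17.4% against 2.23% and 19.4% against 2.69%. Within states the pair ranged from 25.6% against 3.17% in ECM myofibroblast-like cells of day 7 to 6.17% (2.03 to 13.8) against 3.66% in proliferating cells of that day, where the interval spans the rest. Ccl2 cells of day 4 also held Il6 in 4.74% (2.88 to 7.30) against 1.92%, but on day 7 this was 2.14% (0.865 to 4.36) against 2.05%. Summed barcodes gave 5.17% (3.04 to 8.14) against 2.67% on day 4 and 2.89% (1.17 to 5.87) against 1.86% on day 7.

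By Pearson r of log2 CPM over 13 groups of cluster and day, which share the 3 libraries, the genes nearest to Ccl2 of 4943 were Pdzd8 (0.96), Pitpnb (0.94) and Lap3 (0.93). Nearest to Ccl7 were Parl (0.83), Ccl2 (0.78) and Ndel1 (0.78), so Ccl2 was among its closest 3. Nearest to Cxcl12 were Ppa1, Cct6a and Gspt1 (each 0.96), and to Il6 Pdha1, Tmsb10 and Phldb2 (each 0.95). Lif lay nearest to Mgll (0.98), Leprotl1 (0.97) and Ppp1r18 (0.96), and Csf1 to Sertad2 (0.98), Zyx (0.97) and Fermt2 (0.97). These are descriptions over groups that are not independent.

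The other chemokines and cytokines give the setting of these genes, beside all genes tested between days 14 and 4, of which 13.5% were higher and 15.3% lower. Of 18 other CC chemokines, 6 could be tested between days 14 and 4: Ccl8 was higher (2.21, 8.26 and 6.76 CPM over the 3 days) and Ccl5 (12.9, 0.516 and 0), Ccl9 (6.55, 10.8 and 2.44) and Ccl17 (16.9, 7.40 and 0.751) were lower, with a median log2 ratio of -0.83. Of 4 other CXC and CX3C chemokines tested, Cxcl16 was higher (119, 137 and 539 CPM) and Cxcl10 (2.68, 6.02 and 0), Cxcl14 (1707, 1440 and 349) and Cx3cl1 (55.5, 49.0 and 14.3) were lower, median -1.88. These lists of 6 and 4 genes each had 1 higher and 3 lower, where the members had 0 of 7 higher and 6 lower. Lists this short, the members' own included, move widely with 1 gene, so their counts stand beside those shares as description only. The CXC chemokines did not all move as Cxcl12 did. Among other cytokines, Ctf1 was higher on day 14 than on day 4 (1.97, 2.41 and 5.26 CPM), and Mif (802, 1043 and 1139) and Kitl (131, 111 and 126) made no call.

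Receptors for the ligands were sparse or moved in both directions, and the shares of all genes beside them are again 13.5% higher and 15.3% lower. Of 23 chemokine receptors, 3 could be tested, and Ackr3, which binds Cxcl12, was higher on day 14 (2.52, 0.516 and 12.6 CPM), with a median log2 ratio over the 3 of 0.36. Of 12 receptors for cytokines, 1 was higher on day 14 than on day 4, Lifr (10.4, 5.59 and 50.3 CPM), the day on which Lif itself was lowest. The 6 of 12 that were lower, a larger share than over all genes, included the gp130 chain Il6st (161, 109 and 68.4 CPM), Osmr (65.2, 31.1 and 21.8) and Il1rap (55.9, 21.8 and 7.14), and the median was -0.96. Il6ra (19.8, 3.78 and 6.39 CPM) and Il1rl1 (91, 24 and 0 UMIs), which bind Il6 and Il33, were also among these 6. Csf1r, the Csf1 receptor, had 35, 27 and 10 UMIs. Ccr2 had 0 UMIs on every day, and Cxcr4 had 1, 0 and 0.

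Genes that act above or below these ligands did not move as 1 group. Of 18 NF-kB pathway and target genes tested between days 14 and 4, Vcam1 (98.6, 176 and 899 CPM) and Sod2 (81.4, 93.7 and 180) were higher, and Nfkb2 (59.2, 43.8 and 16.0), Nfkbiz (22.3, 9.89 and 10.3), Ptgs2 (68.2, 57.4 and 26.1) and Tnfaip6 (67.4, 40.8 and 25.4) were lower, median -0.12. These 2 higher and 4 lower lie near the 13.5% and 15.3% of all genes, so the list as a whole did not stand out. Among gp130 and STAT3 genes, Jak2 (35.3, 20.7 and 10.3 CPM), Pim1 (15.1, 4.73 and 2.44), Cish (19, 12 and 1 UMIs) and Ptpn11 (275, 217 and 128 CPM) were lower, and Stat3 made no call at 97.7, 74.1 and 85.8 CPM. Of 10 regulators of cytokine mRNA decay and stress, Fos was higher (11.9, 12.3 and 83.8 CPM) and Zfp36l2 (28.8, 42.3 and 11.3), Zc3h12a (6.55, 5.16 and 1.88) and Atf3 (47, 32 and 6 UMIs) were lower, median -0.44. Between days 7 and 4 the NF-kB list gave 0 higher and 1 lower (Nfkbiz), and the list of decay and stress regulators 0 higher and 1 lower (Dusp1).

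Markers of other cell types were read beside these levels. The 12 macrophage markers summed to 10.9 CPM on day 4, 28.3 on day 7 and 250 on day 14, with Lyz2 the top gene (4.10, 19.4 and 200 CPM); C1qa was at 0 on day 4, C1qa and Adgre1 on day 7 and C1qb on day 14. Barcodes with at least 2 UMIs of 8 macrophage genes numbered 2, 3 and 3. Leaving out these and the unnamed cluster, together 44, 21 and 3 barcodes, gave Ccl2 levels of 268, 310 and 60 CPM and Csf1 levels of 682, 432 and 93.4. Lyz2 had UMIs in 6, 40 and 36 barcodes, so on days 7 and 14 some barcodes with Lyz2 stayed in. The 5 neutrophil markers in the table summed to 1.03, 0.344 and 9.39 CPM (top genes Mmp8, Camp and Camp), with Ltf at 0 throughout and S100a8, Csf3r and Mmp8 also at 0 on days 7 and 14.

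The 12 endothelial markers summed to 102, 134 and 36.8 CPM, of which Cdh5 gave 77.7, 111 and 22.3; Cldn5, Esam, Erg and Tie1 were at 0 on days 7 and 14, Vwf on day 7 and Flt1, Pecam1 and Kdr on day 14. The 8 germ cell markers summed to 138, 24.3 and 60.3 CPM (top gene Prm1), with Ddx4 and Zbtb16 at 0 on day 7, and the 8 Sertoli cell markers to 62.3, 57.7 and 102 CPM (top genes Sox9, Sox9 and Inha), with Amh at 0 throughout, Dmrt1 on days 7 and 14 and Rhox5 on day 14. The 8 markers of myoid or smooth muscle cells summed to 1790, 1681 and 234 CPM (top genes Tagln, Tagln and Mylk), with Cnn1 at 0 on day 14, and the 12 interstitial progenitor markers to 1246, 747 and 1815 CPM (top gene Dcn), with Clec3b at 0 on day 14. Acta2, a differentiating myofibroblast marker, was at 3162, 2831 and 97.1 CPM. Among the lists used to name states, the proliferating list summed to 1258, 1118 and 195 CPM (top genes Prc1, Prc1 and Mki67) and the ECM myofibroblast list to 4579, 7669 and 930 (Lox, Lox and Col5a2). The differentiating Leydig list summed to 1696, 2870 and 16566 (Akr1cl, Htra1 and Akr1cl) and the Leydig list to 510, 664 and 12489 (Star, Star and Cyp11a1). Their part in the chemokine and cytokine levels was not tested.

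The set of promoter sequences used, from RefSeq on GRCm38.p6, covered 250 bases before and 50 after the start. It held 6 of the 10 genes (Cxcl1, Cxcl12, Il6, Lif, Csf1 and Il33), and the others were not searched. The letters GGANNTTCC, bound by NF-kB, and TGACTCA, bound by AP-1, were searched on both strands, and 4.26% and 5.20% of 32851 promoters held them. GGANNTTCC lay in Cxcl1, Il6 and Csf1 and TGACTCA in Il6 and Lif; Cxcl12 and Il33 held neither. Shown are Il6, Lif and Csf1, which hold a match and were lower on day 14, each 5′ to 3′ on the strand of its gene with the matches in capitals. Il6 is chr5:30012864-30013163 (plus strand), Lif chr11:4257318-4257617 (plus) and Csf1 chr3:107760420-107760719 (minus). In Il6 the matches began 249 and 43 bases before the start, in Lif 228 and in Csf1 154.
Il6: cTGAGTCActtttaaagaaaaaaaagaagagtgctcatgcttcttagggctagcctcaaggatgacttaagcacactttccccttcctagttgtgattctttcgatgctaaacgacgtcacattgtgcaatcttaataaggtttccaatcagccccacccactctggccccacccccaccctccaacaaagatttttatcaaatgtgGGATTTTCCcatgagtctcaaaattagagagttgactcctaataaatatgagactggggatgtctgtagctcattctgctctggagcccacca
Lif: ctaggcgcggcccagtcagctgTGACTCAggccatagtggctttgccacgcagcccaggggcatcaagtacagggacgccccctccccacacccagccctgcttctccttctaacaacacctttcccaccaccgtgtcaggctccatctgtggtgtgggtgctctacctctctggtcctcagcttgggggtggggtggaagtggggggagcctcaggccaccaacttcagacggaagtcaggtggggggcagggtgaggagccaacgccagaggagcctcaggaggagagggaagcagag
Csf1: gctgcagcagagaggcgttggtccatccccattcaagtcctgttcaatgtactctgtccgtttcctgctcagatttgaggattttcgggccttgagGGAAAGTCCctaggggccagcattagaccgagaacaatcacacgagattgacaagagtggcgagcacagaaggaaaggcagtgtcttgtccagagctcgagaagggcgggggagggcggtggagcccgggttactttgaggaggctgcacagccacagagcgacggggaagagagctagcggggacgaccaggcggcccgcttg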

How the data were processed

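Drop-seq libraries of days 4, 7 and 14 were read as the deposited merged table of UMI counts per gene and barcode, made by the authors with Picard 2.6.0, SAMtools 1.2 and STAR on GRCm38 (the deposited notes and the study's methods name different STAR versions). The count entries matched the deposited tables per day (0 entries differed), and 495 columns of other cells were not used. The genes and lists were chosen with earlier results of these data known.

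Levels were summed UMIs per 1000000, ratios log2 with 1 CPM added and no test, since each day was 1 library. Clustering used Seurat 5.3.0 in R 4.3.3: 2000 variable genes less those of the lists (1964 used), 20 components, 20 neighbours and resolution 0.8, giving 12 clusters. A cluster was named for the marker list with the highest median ratio to the other cells, if at least 3 markers with 10 UMIs were 1.5-fold up, and left unnamed where its 10 leading genes held more genes of another list than of its own, or some of its own and at least 2 of another; a further limit on depth left no cluster unnamed, and these limits were set after clusters were seen. The other steps used Python 3.11.15, numpy 2.4.6, scipy 1.17.1, pandas 2.3.3, matplotlib 3.10.9 and Scrublet in scanpy 1.11.5, which called 3 of 6124 barcodes doublets (0.0490%), so the doublets expected at 6% were not found.

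All 10 genes were to be named, and of each other list those of at least 50 CPM, at most 6, and any on which a count of 5 or fewer rests. Genes that led a cluster, and the receptors Il6ra, Il1rl1, Ccr2 and Cxcr4, were named after their values were seen. Alternatives changed the pseudocount, minimum, fold, depth, weighting, cell filter, clustering, class and doublet settings. Added after seeing the data were leaving out the 6% highest doublet scores, barcodes matching over 11 bases or macrophage-gene barcodes, the filter of 500 genes and 10% mitochondrial UMIs, and summed barcodes.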

Additional observations from a re-analysis of the deposited data

Results flagged for a closer look

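Barcodes that the merged table leaves out also held UMIs of the 9 genes: 211 on day 4, 119 on day 7 and 42 on day 14, in 320, 229 and 327 barcodes. They enter the alternative with no cell filter. The filter of 500 genes and 10% mitochondrial UMIs kept 2981, 2173 and 974 barcodes, against 2980, 2171 and 973 in the merged table, so it also took in a few. The sums run over all 9 genes, whereas the limit of 3 counts is for 1 gene at a level of 0. Il6 on day 14, which had that level, had 0 UMIs in the barcodes left out.

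The ratio of proliferating progenitor-like to other named cells went opposite ways on days 4 and 7. For Ccl2 it was 1.57 on day 4 (1.46 to 1.69) and 0.705 on day 7 (0.646 to 0.768), and for Ccl7 1.53 (1.23 to 1.90) and 0.468 (0.365 to 0.592). The other cells were mostly differentiating myofibroblast-like on day 4 and ECM myofibroblast-like on day 7. With 30 components the day 4 log2 ratio of proliferating to differentiating myofibroblast-like cells was -0.21 for Ccl2 and -0.15 for Ccl7, so the day 4 direction depended on the clustering. The difference between the days was not tested.

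With 1 library for each day, differences between days carry no measure of spread between cultures. The cell states are likenesses from marker lists that the study drew partly from these libraries. Whether barcodes that matched over 11 bases are separate cells was not tested, and doublets could not be called. Levels are of mRNA, not of secreted protein. Ccl11, Cxcl1 and Il33 had 22 UMIs or fewer in any library.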

How the results depend on the processing

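Of 562 log2 ratios recomputed for 44 results, 478 moved by no more than their counting error and 83 by more, and the other is a call that reversed. The sign changed in 23, of which 22 belonged to ratios that were no call and 1 to a call. For the 18 calls, 221 of 222 alternative values kept their direction and 210 stayed past 2-fold. An alternative that left fewer than 20 UMIs gave no value.

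The call that reversed was Ccl2, day 14 over day 4, in differentiating Leydig-like cells only, at a log2 ratio of 2.51. In those cells, of 4 genes with enough UMIs, 2 passed 2-fold between days 14 and 4 (Ccl2 and Ccl7, higher, each from 3 UMIs on day 4), where 10.8% of all genes tested were higher and 6.98% lower. Between days 14 and 7, 1 of 4 passed (Cxcl12, lower; all genes 4.69% higher, 5.66% lower), and between days 7 and 4, 1 of 4 (Ccl2, higher; all genes 8.55% and 3.83%). The whole libraries gave 6, 6 and 0.

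Between days 7 and 4, 0 genes passed; this became 1 with 0.1 CPM added (Cxcl1), 4 at 1.5-fold, 1 without the 1% of cells richest in the gene (Lif), 1 without barcodes matching over 11 bases (Ccl7), 1 of 7 in proliferating cells (Lif, higher; all genes 3.22% higher, 2.76% lower) and 2 of 6 in differentiating myofibroblast-like cells (Ccl2 higher, Il6 lower; all genes 7.62% and 14.1%). In the last, 1 barcode held 101 of the 136 Ccl2 UMIs of day 7, and without it the level was 151 CPM against 247 on day 4, while Il6 had 2 UMIs on day 7 (ratio 0.361, 0.0434 to 1.32).

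For proliferating over differentiating myofibroblast-like cells of day 4, 1 gene passed; this became 0 with 5 CPM added, 0 at equal depth, 0 with equal weight per cell, 0 with a class for each cell by itself, 2 with no minimum and 2 at 1.5-fold. For proliferating over ECM myofibroblast-like cells of day 7, 1 became 2 with no minimum, 3 at 1.5-fold, 0 with equal weight and 2 with 30 components. For Leydig-like over differentiating Leydig-like cells of day 14, 0 became 1 at 1.5-fold (Csf1) and 1 without matching barcodes (Ccl7). A lower fold or minimum admits more genes by construction; for the other changes the cause was not tested.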

Other observations

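Among thinned cells of day 4 with a Lif UMI, 76.3% had a Csf1 UMI (59.8 to 88.6) against 52.7% of the rest (50.6 to 54.8), and on day 7 this was 55.1% (40.2 to 69.3) against 37.6% (35.3 to 40.0). With barcodes that matched over 11 bases summed, this was 60.6% (42.1 to 77.1) against 51.7% and 42.5% (27.0 to 59.1) against 38.6%, intervals that span the rest.

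The barcode with the most Csf1 UMIs on day 7 held 107 of the 5021 and was also the deepest of its library, with 52660 UMIs.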
